A study of Homo sapiens with 49 samples.

Results

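LSD1, the product of KDM1A, was mapped by chromatin immunoprecipitation and sequencing (ChIP-seq) in Ishikawa cells, an endometrial adenocarcinoma line that carries estrogen receptor α, after vehicle or estradiol (E2). The data were a pair of peak lists. The list of the DMSO library held 8618 peaks and the list of the E2 library held 18384, together 27002 of the 528044 peaks in the 45 lists of the series. Both groups were grown in medium stripped of hormone before treatment, and each was then given DMSO or 10 nM E2 for 1 h. Each group was 1 library, so the values below have no replicate check, no test was made between them, and the 95% intervals (exact, Clopper-Pearson) cover counting error only. A peak of one list that overlapped a peak of the other by at least 1 bp was called shared, and the rest were called E2-only or DMSO-only. This gave 6592 shared and 2026 DMSO-only peaks in the DMSO list, and 6511 shared and 11873 E2-only peaks in the E2 list.

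LSD1 is a flavin-dependent demethylase that removes methyl groups from lysine 4 of histone H3 (H3K4). It has no strong sequence preference of its own and reaches chromatin as part of the CoREST and NuRD complexes, brought there by DNA-binding factors. It is best known as a corepressor that keeps enhancers and promoters quiet, but it has also been found at active promoters and at sites of nuclear receptors, estrogen receptor α among them. E2 binds this receptor, which recognises the estrogen response element (ERE), a pair of facing copies of a hexamer. AP-1, the dimer of JUN and FOS proteins, is a frequent neighbour of the receptor on chromatin.

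The summits of several peaks carry these results, and their sequences are shown before the values. Each covers 100 bases on either side of a summit (the summit window) in hg19 (GRCh37), read 5′ to 3′ on the plus strand. For the shared peaks shown the summit is that of the E2 list. No window shown overlaps an annotated exon. Capitals mark ERE and AP-1 sites only, which are the full ERE where there is one, otherwise the ERE hexamer AGGTCA, and the AP-1 site TGANTCA, all on either strand. The first 3 were among the 10 strongest E2-only peaks. They lay in introns of GREB1, an estrogen-induced coactivator of the receptor, of CARS1, a cysteine tRNA ligase, and of the noncoding gene LINC-PINT.
GREB1 intron, E2-only, chr2:11638756-11638956: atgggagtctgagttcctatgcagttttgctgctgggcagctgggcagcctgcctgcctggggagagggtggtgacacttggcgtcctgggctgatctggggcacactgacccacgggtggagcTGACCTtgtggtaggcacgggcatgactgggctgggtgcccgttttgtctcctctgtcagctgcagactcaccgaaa
CARS1 intron, E2-only, full ERE, chr11:3032112-3032312: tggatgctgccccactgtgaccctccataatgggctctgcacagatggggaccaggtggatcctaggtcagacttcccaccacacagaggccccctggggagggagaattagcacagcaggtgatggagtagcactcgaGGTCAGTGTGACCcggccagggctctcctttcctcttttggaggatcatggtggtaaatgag
LINC-PINT intron, E2-only, ERE hexamer and AP-1, chr7:130579010-130579210: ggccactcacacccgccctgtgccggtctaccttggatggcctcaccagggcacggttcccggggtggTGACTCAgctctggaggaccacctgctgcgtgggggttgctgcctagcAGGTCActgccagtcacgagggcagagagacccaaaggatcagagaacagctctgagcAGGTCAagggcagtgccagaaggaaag

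The next 2 were shared peaks that were stronger with E2. One lay upstream of TGFA, which encodes an epidermal growth factor receptor ligand, in an intron of the neighbouring gene ADD2. The other lay in an intron of DOK7, the gene of an adaptor protein.
Upstream of TGFA, shared, full ERE, chr2:70843424-70843624: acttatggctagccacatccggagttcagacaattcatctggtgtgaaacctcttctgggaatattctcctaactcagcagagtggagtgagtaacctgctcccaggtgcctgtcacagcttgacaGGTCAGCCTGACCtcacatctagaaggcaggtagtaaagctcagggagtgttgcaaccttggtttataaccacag
DOK7 intron, shared, full ERE, chr4:3468737-3468937: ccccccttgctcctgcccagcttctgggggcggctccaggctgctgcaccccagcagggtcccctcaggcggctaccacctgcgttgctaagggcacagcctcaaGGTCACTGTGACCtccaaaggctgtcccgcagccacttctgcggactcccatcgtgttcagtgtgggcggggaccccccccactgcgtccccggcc

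The last 4 were places with a peak of the DMSO library that was missing or weaker with E2. The intergenic peak near STK38L, the gene of a kinase, and the intronic one near TNC, the gene of the matrix protein tenascin C, were DMSO-only. Those in an intron of PPM1H, a phosphatase gene, and near AMN1 were shared, and their windows are centred on the weaker E2 summit.
Near STK38L, DMSO-only, AP-1, chr12:27332826-27333026: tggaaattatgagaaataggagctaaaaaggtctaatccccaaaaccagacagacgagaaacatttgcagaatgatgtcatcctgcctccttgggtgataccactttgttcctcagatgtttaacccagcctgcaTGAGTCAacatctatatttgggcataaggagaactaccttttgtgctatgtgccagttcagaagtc
Near TNC, DMSO-only, neither an ERE hexamer nor AP-1, chr9:117883486-117883686: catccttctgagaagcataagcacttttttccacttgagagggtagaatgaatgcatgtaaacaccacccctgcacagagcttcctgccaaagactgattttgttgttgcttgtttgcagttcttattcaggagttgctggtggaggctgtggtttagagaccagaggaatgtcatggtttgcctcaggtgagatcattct
PPM1H intron, shared, AP-1, chr12:63118911-63119111: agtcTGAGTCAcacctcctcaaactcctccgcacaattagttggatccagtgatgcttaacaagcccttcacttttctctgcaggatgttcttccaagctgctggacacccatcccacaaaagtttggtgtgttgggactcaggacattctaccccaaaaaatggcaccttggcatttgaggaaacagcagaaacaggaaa
Near AMN1, shared, AP-1, chr12:31902319-31902519: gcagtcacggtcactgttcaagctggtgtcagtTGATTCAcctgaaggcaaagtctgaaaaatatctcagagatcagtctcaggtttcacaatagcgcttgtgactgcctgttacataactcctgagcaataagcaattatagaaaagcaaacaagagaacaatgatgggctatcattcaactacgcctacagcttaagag

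Depth could be estimated from the lists only indirectly, and the lists differed in base composition, which is given below. The tag number estimated from the deposited values was 8.54 Mtags (megatags) for DMSO and 9.59 Mtags for E2, and the median summit pileup was 31 and 32 tags. Neither value shows depth directly, because the estimate rests on background levels and peak width and the pileup covers called peaks only. Ishikawa H3K4me3, a mark of active promoters, lay at a start site of all 8 epithelial or endometrial genes looked at, among them KRT8, EPCAM, PAX8, ESR1 and PGR. It was absent from PTPRC, CD3E, CDH5 and DCN, markers of leukocytes, endothelium and fibroblasts, but was present at COL1A1, a fibroblast collagen gene, at TRPS1, a breast luminal factor, and at GATA3 in the E2 list. The series has replicates of RNA polymerase II in T-47D breast cancer cells only, and there the longer list held 1.85 (vehicle) or 1.98 (E2) times the peaks of the shorter one. LSD1 in T-47D gave only 42 peaks with DMSO and 442 with E2, and 45 of the 442 overlapped the Ishikawa E2 list (10.2%, 7.52 to 13.4).

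The first comparison asked how many LSD1 sites of vehicle-treated cells were found again after E2, and how many were added. The number of peaks was higher with E2 by a ratio of 2.13, and the covered length went from 3.66 Mb to 8.41 Mb. Of the DMSO peaks 76.5% (75.6 to 77.4) were shared, and 23.5% were DMSO-only. Of the E2 peaks 64.6% (63.9 to 65.3) were E2-only, a share that fell to 39.4% when the E2 list was shortened to the strongest 8618 peaks. Between RNA polymerase II replicates of the same treatment the larger list had 63.1% (DMSO) or 59.8% (E2) of peaks without a partner, and 78.5% or 86.8% of the smaller list was shared. The E2-only share and the ratio of 2.13 for LSD1 were thus above, and the shared part of the smaller list below, both replicate values. Those values are of another protein in another line, and whether LSD1 lies outside the spread of replicates was not tested.

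Most peaks were clearly inside or outside the overlap rule. The median overlap of a shared E2 peak was 356 bp and only 24 of the 6511 were overlapped by under 50 bp. On the other side of the rule 79 E2-only peaks and 24 DMSO-only peaks lay within 100 bp of a peak in the other list. E2-only peaks were the weakest class by fold enrichment at the summit (ChIP pileup over background), with a median of 8.92, against 13.2 for shared peaks in the same list. DMSO-only peaks, with a median of 10.6, were not weaker than the shared peaks of their list, at 9.93.

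Shared peaks were mostly stronger with E2. Fold enrichment rose from a median of 9.93 with DMSO to 13.4 with E2 over 6592 pairs, and the median of the paired ratio was 1.36 (quartiles 1.099 and 1.69). It was higher with E2 in 82.8% of pairs, at least 2-fold higher in 787 (11.9%) and at least 2-fold lower in 49 (0.743%). Across pairs, which share their libraries, log2 fold enrichment in the lists correlated with Pearson's r of 0.71 and Spearman's rho of 0.68. The median ratio was 1.35 at start sites, 1.40 at H3K4me3 away from a start site and 1.21 at distal peaks, and the pairs scattered most at distal peaks, where r was 0.42.

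**Figure D1:**
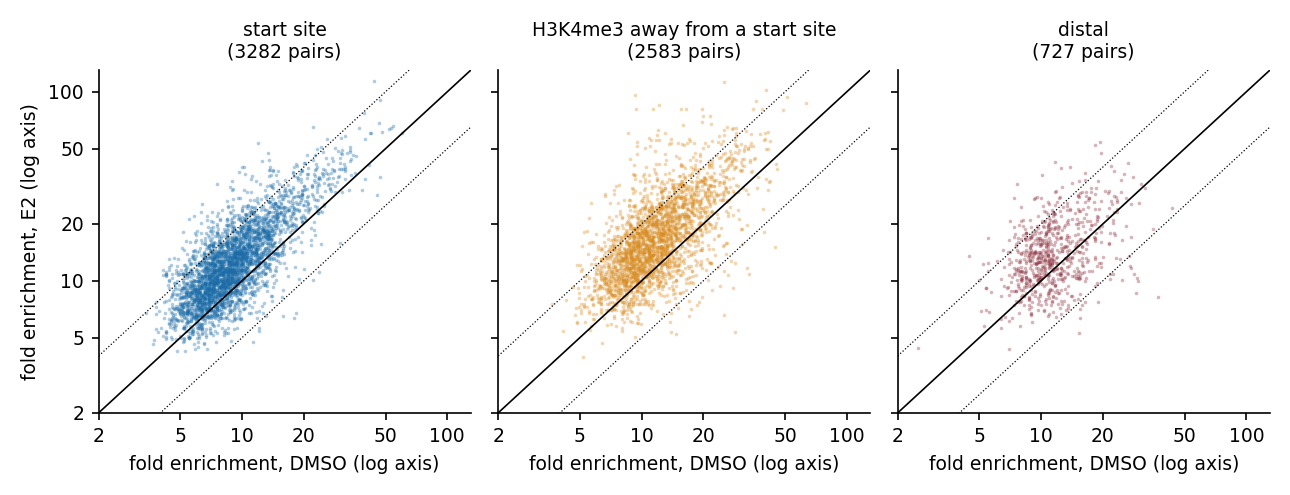
Fold enrichment at the summit of the 6592 shared LSD1 pairs, DMSO on the x axis and E2 on the y axis (both log axes), 1 point per DMSO peak and its strongest E2 partner, split by element. The solid line marks equal values and the dotted lines a 2-fold difference; most points lie above the solid line, 82.8% in all and 69.5% at distal peaks.

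The second question was where the sites lie. A peak was placed at a start site if it came within 250 bp of an annotated transcription start, otherwise at H3K4me3 away from a start site if it overlapped an Ishikawa H3K4me3 peak, and otherwise it was called distal, a division chosen after the data had been seen. Start sites held 51.6% (50.4 to 52.8) of shared and 51.6% (50.7 to 52.5) of E2-only peaks in the E2 list, but 11.01% (9.68 to 12.5) of DMSO-only peaks. With a reciprocal overlap of 50% the last share was 26.5%. DMSO-only peaks were mostly distal, 1350 of 2026 (66.6%, 64.5 to 68.7), against 11.03% of shared peaks in that list and 20.8% of E2-only peaks. By gene annotation 53.1% of DMSO-only peaks lay in introns and 32.4% between genes.

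Read the other way, E2 cells held nearly all LSD1 promoter sites of vehicle cells and few of the distal ones. Of 3505 DMSO peaks at start sites, 3282 (93.6%, 92.8 to 94.4) were overlapped by an E2 peak. At H3K4me3 away from a start site 2583 of 3036 (85.1%) were overlapped, and at distal places 727 of 2077 (35.0%, 32.9 to 37.1). The low distal share was not limited to weak peaks, being 36.5% at a fold enrichment under 8, 32.4% from 10 to 15 and 45.2% (47 of 104) from 20 to 30. In the E2 list the share already present with DMSO depended on strength instead. At start sites it rose from 16.6% at a fold enrichment under 8 to 97.8% (176 of 180) at 30 or more.

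GC content moved with the same classes. The summit window had a median GC of 59.2% in the DMSO list and 64.2% in the E2 list, and the lists differed mostly on the AT-rich side. Windows under 50% GC made up 24.9% of the DMSO list (2146 peaks) and 1.83% of the E2 list (336 peaks). Among distal peaks they made up 65.4% and 4.90%. From 40 to 50% GC the number of peaks went from 1675 with DMSO to 334 with E2, from 50 to 60% it went from 2344 to 5320, and from 60 to 70% from 2582 to 8483. The c-JUN lists of the same cells differed in the same direction but less, with 69.6% of distal peaks under 50% GC in the DMSO list and 49.8% in the E2 list.

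**Figure D2:**
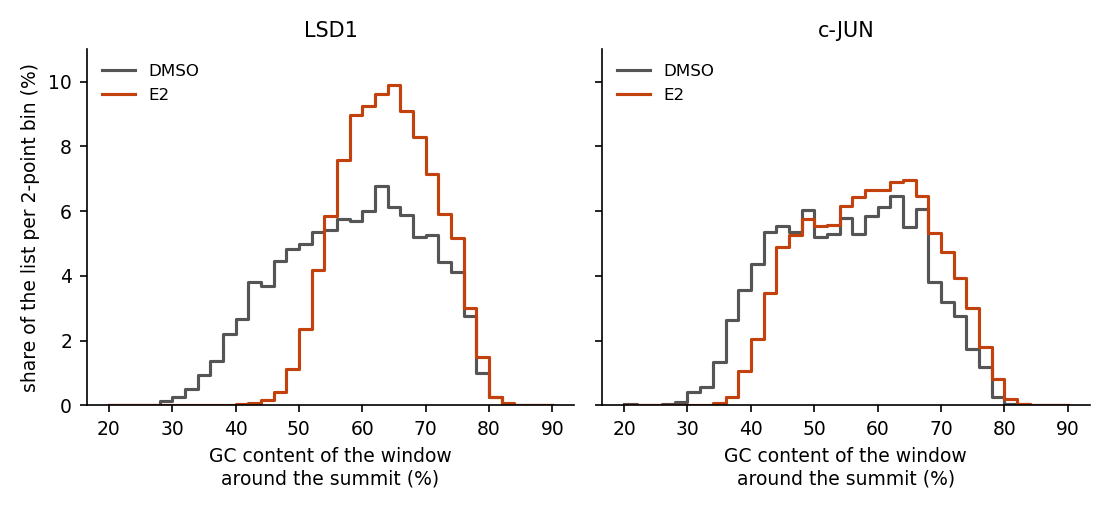
GC content of the window of 100 bp on either side of each summit (x axis, percent) in 2-point bins, as the share of each list (y axis, percent), for the LSD1 lists (left) and the c-JUN lists (right) of DMSO and E2 cells. The E2 curve of LSD1 has almost no peaks below 50% (1.83% of the list), whereas both c-JUN curves extend below it.

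Below 60% GC fewer distal than start site peaks were overlapped within each bin of GC, whereas above it the shares were close. The overlapped share of distal DMSO peaks was 2.44% under 40% GC, 16.7% from 40 to 50%, 72.0% (67.9 to 75.7) from 50 to 60%, 94.4% (89.7 to 97.4) from 60 to 70% and 100% (21 of 21) above 70%. For DMSO peaks at start sites it was 16.7% under 40% GC (3 of 18), 48.1% from 40 to 50%, 92.5% (90.2 to 94.4) from 50 to 60%, 97.3% (96.3 to 98.1) from 60 to 70% and 97.1% above 70%. The ratio of fold enrichment at shared pairs followed GC as well, from 0.71 under 40% (24 pairs) and 0.99 from 40 to 50% to 1.30 from 50 to 60% and 1.46 from 60 to 70%. By chromosome the DMSO-only share ran from 7.33% on chromosome 22, which is gene-rich, to 46.5% on chromosome 4, which is gene-poor. The part of base composition in the classes was not tested, and with 1 library per treatment, E2 and the base composition of a library cannot be told apart.

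**Figure D3:**
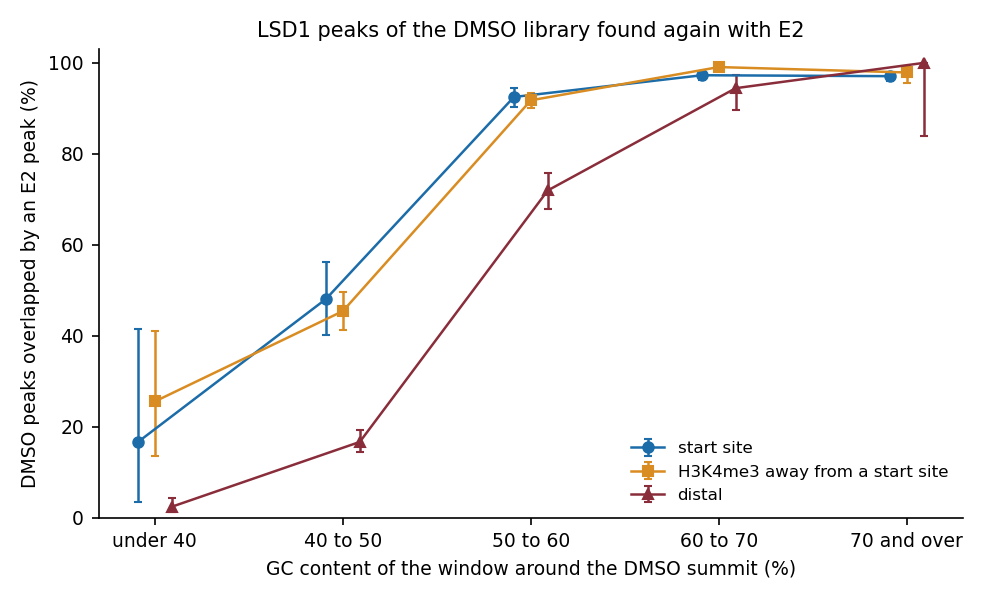
Share of DMSO LSD1 peaks overlapped by an E2 LSD1 peak (y axis, percent) by GC content around the DMSO summit (x axis, bins in percent) at start sites, at H3K4me3 away from a start site and at distal places. Points are shares and bars 95% Clopper-Pearson intervals; every curve rises with GC up to 60 to 70%, where the curves come close, and from 50 to 60% the distal point (72.0%) is below the start site point (92.5%).

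The third comparison set the classes beside the other Ishikawa lists, which mark promoters (H3K4me3, and TAF1, a subunit of the general factor TFIID), enhancers (H3K4me1), corepressor sites (SIN3A) and sites of c-JUN, MAX and the retinoic acid receptor RARA. The histone marks were taken after 8 h of DMSO or E2, whereas LSD1 and the other proteins were taken after 1 h. The SIN3A lists are labelled by stripped and full medium, not by DMSO and E2. They were counted with the DMSO lists and the E2 lists respectively. Shared peaks were promoter-like and carried the most other proteins. In the DMSO list 85.9% of them overlapped TAF1, 79.1% SIN3A of stripped medium and 84.3% H3K4me3. E2-only peaks mostly lay at places that were already marked as promoters with vehicle. TAF1 of the DMSO library was at 62.0% (61.1 to 62.9) of them, SIN3A of stripped medium at 61.6% and H3K4me3 of the DMSO library at 71.5%. DMSO-only peaks had little of these, at 13.0%, 12.1% and 27.4%, while their share with H3K4me1, 37.5%, was near that of shared peaks, 40.4%, and above that of E2-only peaks, 25.2%.

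c-JUN divided the classes differently. The c-JUN list of DMSO cells (3768 peaks) overlapped 39.4% (37.3 to 41.6) of DMSO-only peaks, 29.7% of shared peaks and 2.95% (2.65 to 3.27) of E2-only peaks. The much longer c-JUN list of E2 cells (18311 peaks) overlapped 72.6% of DMSO-only peaks, 80.0% of shared and 43.8% of E2-only peaks. Most DMSO-only sites thus lay at c-JUN sites of E2 cells, although LSD1 had no peak there with E2. The low c-JUN share of E2-only peaks was also seen at matched GC. Among distal peaks of 50 to 60% GC the DMSO c-JUN list overlapped 22.7% of DMSO-only, 26.8% of shared and 2.56% of E2-only peaks, and the E2 c-JUN list overlapped 105 of the 150 DMSO-only peaks, 79.7% of the shared and 37.7% of the E2-only. The strongest DMSO-only peaks were nearly all c-JUN sites, 93 of 102 (91.2%, 83.9 to 95.9) at a fold enrichment of 20 or more against 71 of 334 (21.3%) under 8. The c-JUN share rose with strength in the other classes too. Between the same bins it went from 13.4% to 73.7% for shared peaks of the DMSO list. For E2-only peaks and c-JUN of E2 cells it went from 44.2% to 81.1%.

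**Figure D4:**
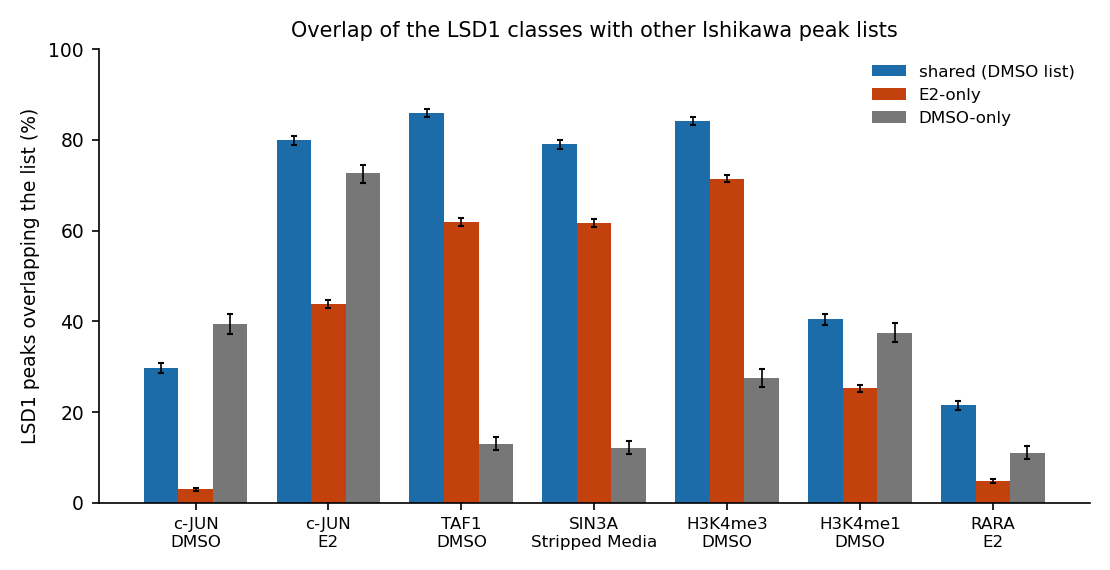
Share of LSD1 peaks (y axis, percent) that overlap another Ishikawa peak list (x axis) by at least 1 bp, for shared peaks of the DMSO list, E2-only and DMSO-only peaks. Bars start at 0 and carry 95% Clopper-Pearson intervals; the DMSO c-JUN list is nearly absent from E2-only peaks (2.95%) and TAF1 is low at DMSO-only peaks (13.0%).

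From the side of c-JUN, most sites that c-JUN held with both treatments were LSD1 sites under vehicle. Of 3362 such c-JUN peaks of the E2 list 77.7% overlapped LSD1 of the DMSO library, from 76.2% to 79.0% over the bins of GC. This narrow range pooled places that moved in opposite directions, since the share fell from 75.4% at 40 to 50% GC to 39.7% at 60 to 70% among distal c-JUN peaks and rose from 59.6% to 69.04% at start sites. LSD1 of the E2 library overlapped 66.7% in all, from 6.19% under 40% GC to 92.8% from 60 to 70%. At the 14949 c-JUN peaks of the E2 list alone, LSD1 was already present with DMSO at 27.03% and was present with E2 at 53.8%, again rising with GC, from 2.04% to 79.0%. Of 1250 distal c-JUN peaks of DMSO cells 1097 (87.8%) were found again in E2 cells, and at 488 of these LSD1 had a peak with DMSO alone.

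**Figure D5:**
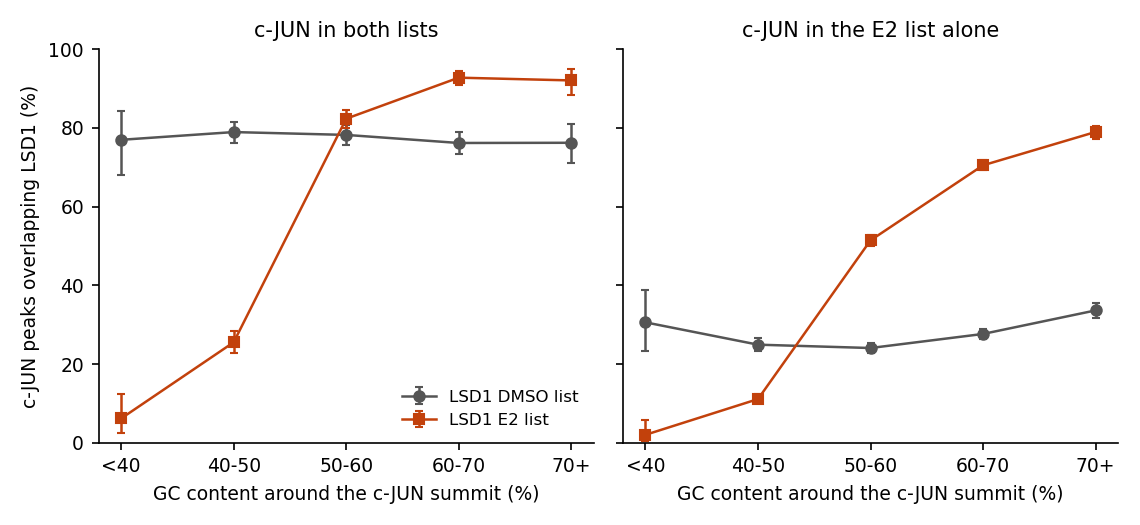
Share of c-JUN peaks of E2 cells that overlap LSD1 (y axis, percent) by GC around the c-JUN summit (x axis, bins in percent), for c-JUN peaks found with both treatments (left) and in the E2 list alone (right), with 95% Clopper-Pearson intervals. With all places pooled the DMSO LSD1 share on the left runs from 76.2% to 79.0%, and the E2 LSD1 share rises from under 10% to above 75% in both panels.

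RARA and MAX were more frequent at shared peaks than in the other classes. The RARA list of E2 cells overlapped 21.5% of shared, 11.01% of DMSO-only and 4.74% of E2-only peaks, and in the E2 list it covered 43.7% of the shared peaks at a fold enrichment of 20 or more. Shared pairs with RARA were more often at least 2-fold higher with E2, 17.1% (251 of 1466), than pairs without it, 10.5% (536 of 5126), and the order held at 50 to 60% GC, 17.0% against 9.23%. Pairs with RARA were also more often at least 2-fold lower, 1.36% against 0.566%, and at 40 to 50% GC their median ratio was 0.90 against 1.002 without RARA. MAX of DMSO cells overlapped 21.6% of shared, 8.38% of E2-only and 3.21% of DMSO-only peaks.

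The lists of H3K27me3, a mark best known at Polycomb-silenced genes, lay in large part inside the LSD1 lists. Of 2199 H3K27me3 peaks of DMSO cells 77.2% overlapped LSD1 of the DMSO library and 2023 of 2199 LSD1 of the E2 library. Only 296 of the 2199 were distal. The rest lay at start sites or under H3K4me3, a mark of active promoters. The label was not tested, and these lists were not read as silenced chromatin. No LSD1 peak overlapped the 114 peaks of H3K36me3. With SIN3A of full medium counted among the E2 lists, some peaks were overlapped by no other list of the same treatment. They made up 28.5% of DMSO-only, 10.1% of E2-only and 2.76% of shared peaks in the DMSO list.

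The AP-1 site was most frequent in the DMSO-only class, where 22.7% (20.8 to 24.5) of windows held it. Of the 10 strongest DMSO-only peaks only that near STK38L, shown above, held it. The site was in 11.2% of shared and 6.54% of E2-only windows of the E2 list, against 6.21% of windows on a grid over the genome and 4.05% at protein-coding start sites. Among distal peaks the shares were 25.5% for DMSO-only, 23.4% for shared peaks of the DMSO list and 13.0% for E2-only. At 40 to 50% GC these distal shares were 27.4%, 25.9% and 8.82%, and from 50 to 60% they were 20.7%, 25.5% and 14.4%. From 50 to 60% GC the DMSO-only share was thus not above the shared one. Within 50 bp of the summit the site was in 12.3% of DMSO-only, 6.08% of shared and 3.504% of E2-only windows over all places. GGAATG is the core recognised by TEAD factors, which often bind beside AP-1. Over all places it was in 28.9% of DMSO-only and 16.4% of shared windows of the E2 list, against 10.6% of the grid. Among distal peaks the shares were closer, 29.5% for DMSO-only, 22.6% for shared peaks of the DMSO list and 16.6% for E2-only. GGGCGG, the GC box of SP factors, went the other way, from 7.62% of DMSO-only to 38.2% of shared windows over all places. Among distal peaks it was in 3.41% of DMSO-only and 13.9% of shared windows of the DMSO list. Its letters are GC-rich like the windows.

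The ERE hexamer was most frequent in the strongest E2-only peaks. It was in 8.80% (7.98 to 9.68) of E2-only windows at a fold enrichment under 8 and in 14.5% from 10 to 15. At 20 or more it was in 65 of 180 (36.1%, 29.1 to 43.6). Median GC in these bins was 66.2%, 63.2% and 62.7%. In shared peaks of the E2 list at 20 or more it was in 16.7% (14.8 to 18.7) and in DMSO-only peaks of that strength in 9.80% (10 of 102), against 12.7% of the genome grid and 9.57% of protein-coding start sites. The full ERE, whose arms can overlap the hexamer, was in 4 of the 180 strongest E2-only windows (2.22%, 0.609 to 5.59). Shared windows of the E2 list at 20 or more held it in 9 of 1415 (0.636%, 0.291 to 1.204). On the grid, whose median GC was 39.8%, it was in 0.0162%. These 180 peaks lay away from start sites more than the weak ones, with 22.8% at start sites against 69.3% under 8, and 81.1% overlapped c-JUN, 65.6% H3K4me1 and 18.3% RARA of E2 cells. A motif match describes the letters of the window and does not show binding. The hexamer is a single arm of the ERE, and a match does not show which factor, if any, binds there.

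The 10 strongest E2-only peaks all overlapped c-JUN, RARA and H3K4me3 of E2 cells, 8 of the 10 held an ERE hexamer and none was distal. Their fold enrichment was 43.0 to 69.2 and their GC 54.7% to 63.7%. The highest, at 69.2 (chr8:98776408-98777017), lay 10553 bp from the start of LAPTM4B, the gene of a lysosomal membrane protein. It was followed by the start site of the noncoding gene SWINGN at 57.3 (chr13:114631410-114632389) and a site 49960 bp from NTMT1, an N-terminal methyltransferase gene, at 49.5. DHRS3, a retinal reductase gene, had its intronic peak at 49.3. The GREB1 intronic peak shown above reached 49.1 (chr2:11638622-11639090) at 16389 bp from the gene start. The intron of GSE1, which encodes a protein found with LSD1 complexes, carried a peak at 43.3 (chr16:85499395-85500135) and the CARS1 intron one at 43.1. The last of the 10, at 43.0, lay 94035 bp from CEBPB, a leucine zipper factor gene.

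The 10 strongest DMSO-only peaks were of another kind. All 10 overlapped c-JUN of DMSO cells, none overlapped TAF1 and 8 were distal. An AP-1 site was in 1 and an ERE hexamer in 1, and GC ran from 32.8% to 45.3%. The peak in an intron of RASGEF1B, a Ras exchange factor gene, had a fold enrichment of 41.3 and the one 63975 bp from STK38L had 40.1. The site 3100 bp from the start of TNC had 37.3. Others lay in introns of TMTC1 (33.9), of TPH2, which encodes a serotonin-synthesising enzyme (32.6), and of RPSAP52 beside the chromatin factor gene HMGA2 (32.1). A pair of intergenic peaks had 32.7 and 31.6 at 321332 and 342568 bp from the nearest coding gene, ACTBL2.

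Shared sites reached the highest values of all. The start site of XXYLT1, a xylosyltransferase gene, went from 44.2 to 114.5 (chr3:194814509-194816092), and an intron of NDUFA11, a respiratory complex I gene, from 25.2 to 113.3. ZEB1, which encodes a repressor of epithelial genes that works with CtBP and LSD1, had 46.8 at its start site with DMSO and 90.5 with E2 (chr10:31608131-31608789). An intron of AFAP1L2 had 63.0 and 87.6.

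The ratio was highest in an intron of KAZN, the gene of a desmosome-associated protein, where fold enrichment went from 9.33 to 96.4, a ratio of 10.3 (chr1:15240037-15241214). NFIC, a nuclear factor I gene, had 9.37 and 80.9 in an intron, a ratio of 8.63. DOK7, with a full ERE, had 11.3 and 80.9, a ratio of 7.14. CBFA2T3, the gene of a corepressor, had 12.1 and 85.6. The 10 highest ratios all lay at c-JUN, RARA, TAF1, H3K4me3 and H3K4me1 peaks of E2 cells, and none was at a start site. At the other end PPM1H went from 28.4 to 5.33, a ratio of 0.188, AMN1 from 37.1 to 8.17, and ALDH1A2, which encodes an enzyme of retinoic acid synthesis, from 25.3 to 6.62. All 3 windows, centred on the E2 summits, held an AP-1 site. The windows of the other peaks among the 5 lowest ratios, near FGFR2 and in a CTBP2 intron, held none. The 5 lowest ratios had a GC of 42.3% to 52.7%.

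E2-only peaks were also counted per gene, by the nearest protein-coding start within 100 kb. At least 1 was assigned to 7150 genes, the median was 1 and 25 genes had 10 or more. GSE1 had the most, 36 beside 23 shared and 0 DMSO-only peaks, and 23 of the 36 were distal. ZMIZ1, a coactivator gene, had 32 beside 16 shared, CXXC5 19 beside 11 and NFIC 18 beside 7. CEBPB and WNT7B had 14 each, beside 4 and 5 shared. Over the whole E2 list 64.6% of peaks were E2-only. Genes with many LSD1 peaks of any class can rank high by this count, and a difference from that share was not tested.

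At the level of genes, a start site of any annotated transcript was counted as bound when a peak came within 250 bp of it. Of 20090 protein-coding genes 3228 (16.1%) were bound with both treatments, 4920 (24.5%) with E2 only and 118 (0.587%) with DMSO only. Among the 13766 genes with H3K4me3 at a start site these shares were 23.2%, 35.0% and 0.806%, and gene lists are read against both sets of shares. Where a gene has several starts, the peaks of both treatments can lie at different ones.

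Among LSD1 and its partners, 6 of 27 genes were bound with both treatments (22.2%), 6 with E2 only (22.2%) and 1 with DMSO only. These shares are near the background. KDM1A itself was bound with E2 only, at 6.01. HDAC1, the deacetylase of the complex, had 10.5 and ZMYM2 10.5 with E2 only, and MTA3, a NuRD subunit, 13.9. GSE1 had 10.3 with DMSO and 17.7 with E2 and MTA1 14.9 and 28.5, at different starts of the gene. CTBP2, which encodes a corepressor, had 8.12 and 9.70. Zinc finger repressors that bring LSD1 to DNA differed among themselves, since GFI1 was bound with both treatments, ZEB2 with E2 only (16.3), and SNAI1, GFI1B, INSM1 and REST with neither.

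Of 30 estrogen-induced genes 8 were bound with both treatments (26.7%), 10 with E2 only (33.3%) and none with DMSO only, near the 23.2% and 35.0% of genes with H3K4me3. The E2-only members were GREB1, at an internal start with 7.66, the progesterone receptor gene PGR with 8.75, TGFA with 9.94, the cyclin gene CCND1 with 8.24, the corepressor gene NRIP1 with 6.06, CA12 with 8.04, RARA with 25.002, RET with 10.2, STC2 with 5.42 and EGR3 with 11.02. Only RARA was above 20. CELSR2 had 19.6 with DMSO and 38.0 with E2, and MYC 6.93 and 14.97. TFF1, PDZK1, XBP1 and PEG10 were bound with neither.

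Genes of AP-1 subunits were mostly bound with both treatments, 12 of 17 (70.6%), and 2 with E2 only (11.8%). Of all protein-coding genes 16.1% and 24.5% were so bound, and of those with H3K4me3 23.2% and 35.0%. JUN had 10.5 with DMSO and 14.0 with E2, FOS 7.32 and 8.91, ATF3 8.68 and 9.66 and MAFK 21.5 and 24.3. FOSB, BATF and BATF2 had none. Of 23 immediate early genes, which growth signals switch on within minutes, 10 were bound with both (43.5%) and 6 with E2 only (26.1%). The difference of either list from other genes was not tested. EGR1 had 12.0 with DMSO and 5.40 with E2, against the general direction, and CCN2 had 14.5 and 22.1. DUSP1, a phosphatase gene of the MAP kinase pathway, had 11.4 with E2 only.

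Of 25 steroid receptor and coregulator genes 6 were bound with both (24.0%) and 8 with E2 only (32.0%). These shares are near the 23.2% and 35.0% of genes with H3K4me3. ESR1, the gene of estrogen receptor α, had 17.9 with DMSO and 6.38 with E2. NCOA3, a receptor coactivator gene, had 18.1 and 16.6, and RXRA, the partner of RARA, 15.1 and 26.5. Among 21 epithelial and mesenchymal genes 11 were bound with both (52.4%) and 5 with E2 only (23.8%). For all genes these shares were 16.1% and 24.5%, and for those with H3K4me3 23.2% and 35.0%. The difference was not tested. OVOL2, an epithelial repressor gene, had 13.5 and 38.5, the keratin gene KRT7 16.5 and 19.99, and the cadherin gene CDH2 9.93 and 20.6, while VIM, the vimentin gene, had 20.5 with E2 only. CDH1 was bound with neither.

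Of 19 endometrial and Müllerian factors 1 was bound with both (5.26%, against 16.1% of all genes and 23.2% of those with H3K4me3), EMX2 at 7.39 and 8.34, and 9 with E2 only (47.4%, against 24.5% and 35.0%). Within 1000 bp of a start these were 2 and 10 of 19, and the difference from other genes was not tested. These included the homeobox genes HOXA9 (13.6) and HOXA11 (9.74), PAX8 (7.39) and WNT7A (20.6). Of 22 neuronal genes known as targets of REST and CoREST 4 were bound with both and 5 with E2 only, shares near the background. Over all protein-coding genes the highest E2-only start site was that of SLIT3, a guidance ligand gene, at 39.0, followed by OLIG1, a neural factor gene, at 34.7. The highest DMSO-only start site was that of KIAA1217 at 23.6, then EPB41, a membrane skeleton gene, at 21.1, with GC of 43.3% and 45.8%.

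Loci of interest in the estrogen response showed the classes side by side. Within TGFA and 100 kb on each side there were 2 DMSO peaks and 8 E2 peaks. Both DMSO peaks were shared and stronger with E2. That at -42787 bp from the gene start went from 19.97 to 50.3, and that at -62199 bp, which holds the full ERE shown above, from 17.1 to 43.7. Both lay at H3K4me1, H3K4me3, c-JUN, MAX and TAF1 peaks, and at RARA peaks of E2 cells. They also lay at SIN3A peaks, of stripped medium for DMSO and of full medium for E2. The 6 E2-only peaks were weaker, from 5.80 to 17.8, and 3 of them lay at the TGFA start. GREB1 had 1 DMSO peak, at the neighbouring NTSR2 start, and 6 E2 peaks, with the intronic one at 49.1 the strongest. TFF1 had a single shared peak of 5.27 and 5.79, 28287 bp from its start, and PEG10 had none with either treatment.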

How the data were processed

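Ishikawa cells were kept in medium with charcoal-stripped serum, treated with DMSO or 10 nM E2 for 1 h, and LSD1 ChIP-seq libraries were aligned to hg19 with Bowtie (1.1.2, uniquely aligned reads) and called with MACS2 (2.1.0.20140616) by the authors, 1 list per library. The deposited lists hold, as the authors' MACS2 wrote them, the fold enrichment at the summit (a ratio of pileup to local background), the −log10 p and −log10 q of each peak, and an integer score, which follows the −log10 p. Raw counts were not used here.

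Overlaps (1 bp or more) were computed in Python 3.11.15 (numpy 2.4.6, pandas 2.3.3, scipy 1.17.1, pyfaidx 0.9.0.4). Genes and starts came from GENCODE v44lift37 and sequence from GRCh37. Tag numbers and pileups were solved from the deposited values, for a genome of 2700 Mb. Motifs were searched on both strands of summit windows, against windows every 10 kb of the genome and at protein-coding starts. The letters were TGANTCA (AP-1), GGAATG (TEAD), GGGCGG (GC box) and AGGTCA (ERE hexamer), and the full ERE by its consensus. The overlap and pileup steps were tested on simulated data. Named regions were the 10 strongest of each class, the 10 highest and 5 lowest ratios, and members of lists.

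The gene lists, regions and comparisons were chosen with earlier results of these data known. Alternatives covered the overlap rule, stricter thresholds, the start site and motif windows, list length and the treatment of the partner list. Independent cultures are not stated for any sample. Intervals cover counting error only. Some genes of the lists are counted in them but not reported here by name.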

Additional observations from a re-analysis of the deposited data

How the results depend on the processing

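No paired analysis was possible because each LSD1 treatment has 1 library and no value comes from a test. No single value changed sign under an alternative, but the order of the classes changed for c-JUN, as given below. Of the 65 alternative values of the main results 10 moved by less than their interval and 55 by more, and of 117 others 29 and 88. The cause of a move was not tested unless the setting itself shows it.

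With a fold enrichment of at least 10 in both lists, the ratio of peak numbers was 2.003, 67.8% of DMSO peaks were shared and 66.4% of E2 peaks were E2-only. With a −log10 q of at least 20 these were 2.20, 73.7% and 66.6%. Joining peaks within 1000 bp gave a ratio of 1.94 and 61.1% E2-only, covered length gave a ratio of 2.30, and requiring no DMSO peak within 1000 bp left 59.2% E2-only. A reciprocal overlap of 50% gave 59.9% shared and 71.9% E2-only. Shortening the E2 list to the length of the DMSO list by −log10 p gave 62.1% and 39.4%, so the E2-only share depended most on list length. The ratio at shared pairs was 1.57 by −log10 p, 1.34 with reciprocal overlap and 1.45 with a fold enrichment of at least 10 in either list.

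The share at start sites was 57.9% (shared), 63.6% (E2-only) and 15.5% (DMSO-only) within 1000 bp, and 46.3%, 46.4% and 7.45% for protein-coding genes. At a fold enrichment of at least 10 it was 37.04% for shared and 42.7% for E2-only peaks, and with reciprocal overlap 26.5% for DMSO-only peaks. For c-JUN of the same treatment, with shared, E2-only and DMSO-only in that order here and below, reciprocal overlap gave 63.5%, 32.6% and 34.4%, a fold enrichment of at least 10 gave 81.5%, 46.4% and 50.8%, and the list of the other treatment 29.9%, 2.95% and 72.6%. E2-only peaks, at 43.8% against 39.4% for DMSO-only as classed by 1 bp, were thus lower than DMSO-only peaks under all 3, and with the list of the other treatment shared peaks were lower than DMSO-only peaks too. For TAF1 reciprocal overlap gave 56.0%, 25.5% and 6.27%, the other treatment 85.9%, 62.0% and 8.05%, and a fold enrichment of at least 10 gave 38.7% for E2-only and 8.35% for DMSO-only peaks. The AP-1 share in a window of 50 bp on either side was 6.08%, 3.504% and 12.3%, and at a fold enrichment of at least 10 it was 12.9% for shared and 9.01% for E2-only peaks.

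Alternatives chosen after seeing the data gave overlapped shares of distal DMSO peaks of 29.7% (reciprocal overlap), 24.5% (E2 list shortened) and 37.3% (−log10 q of at least 20), and of start site peaks of 73.9%, 75.5% and 96.0%, with 94.7% for an E2 peak within 1000 bp.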
